A study of Mus musculus with 6 samples.

Results

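The clustered protocadherins are the protein-coding genes of human chromosome 5 whose names begin with PCDHA, PCDHB or PCDHG. The rule uses name, chromosome and biotype in the deposited count table, and gave 53 of its 58735 genes. It uses no measured value, but the family was taken up with earlier results of these data known. There are 15 alpha genes, 16 beta genes and 22 gamma genes, all on the forward strand, between bases 140786136 and 141512981 of hg38. RNA-Seq was available for 22Rv1, a human prostate cancer cell line. Of the libraries, 3 came from parental cells treated with vehicle and 3 from the resistant subline BL-B01D1_R. The subline was grown in rising concentrations of BL-B01D1, an antibody-drug conjugate against EGFR and HER3 that carries a topoisomerase I inhibitor, and whether drug was present at harvest is not given in the sources used here. The resistant libraries come from 1 selection of 1 line, so p-values measure only the spread between replicates of the same cells. Whether the 3 replicates of a group were separate cultures is not given in the sources used here. Changes that arose by drift cannot be told apart from changes tied to resistance. Although the labels give mouse as organism, 22Rv1 is a human line and the table lists human gene identifiers, so human gene names were used.

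Clustered protocadherins are adhesion proteins of the cell surface, related to cadherins, and are best known from neurons, in which single cells use different combinations of them and matching combinations on facing membranes recognize each other. Each alpha and gamma protein begins in its own variable exon with its own promoter, which is spliced to a set of constant exons shared by the whole cluster. A beta gene consists of its own exon and has no constant part. Promoter choice is known to depend on DNA methylation and on the insulator protein CTCF, which with the cohesin ring brings a promoter to a distant enhancer. The C-type members of the alpha and gamma clusters (PCDHAC1, PCDHAC2 and PCDHGC3 to PCDHGC5) lie nearest the constant exons and are controlled apart from the other members. The clusters are also known as targets of DNA methylation over long stretches in several cancers.

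The layout of the genes limits what a count means here. The listed length equaled the genomic span in 16 of the 16 beta genes, so that each was counted over its whole span. The 15 alpha genes ended within 3 bases of 141012344 and the 22 gamma genes within 3 bases of 141512979, where the shared constant exons lie. How featureCounts was set for reads that fall in several genes is not given in the sources used here. If such reads were discarded, an alpha or gamma count rests on the variable exon alone while the listed length includes the constant exons, which makes its FPKM (counts divided by gene length and library size) too low beside that of a beta gene. Reads shared between near-identical variable exons, beta genes above all, and reads from the opposite strand are uncertain for the same reason.

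Total counts were between 13821639 and 17251491 per library, and 3 counts corresponded to 0.174 to 0.216 CPM (counts scaled to a library of 1e6 after TMM adjustment). The 10 markers of prostate luminal epithelium had more than 3 counts in every library. Of 8 neuroendocrine or neuronal markers, 4 did so, while INSM1 and NEUROD1 stayed at 3 counts or fewer throughout. The 8 summed to 161.4 to 176.8 CPM in parental and 147.9 to 159.1 CPM in resistant libraries, but their members went different ways: CHGA was called lower (39.4 ± 1.59 and 8.18 ± 0.495 CPM), CHGB was higher (24.2 ± 1.32 and 37.9 ± 1.63 CPM, edgeR FDR 6.59e-10) and SYP had 102.8 ± 7.63 and 106.0 ± 3.65 CPM (SD, n = 3 each). The 6 fibroblast markers summed to 111.7 to 115.0 and 39.6 to 44.7 CPM, a difference carried by LUM (96.0 ± 2.96 and 28.8 ± 2.40 CPM, called lower), while COL1A1 had 14.2 ± 1.09 and 11.7 ± 0.558 CPM (SD, n = 3 each) and COL1A2 was at 3 counts or fewer in each library. The part of these marker differences in the results below was not tested.

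Protocadherin mRNA was higher in the resistant subline, with the largest shift in the beta cluster. The counts of all 53 members summed to 277.5, 266.1 and 268.6 CPM in the parental libraries and 398.3, 398.6 and 392.9 CPM in the resistant libraries, a ratio of 1.46 between group means. In bulk RNA, more cells that express a gene and more RNA per cell cannot be told apart. Groups were compared gene by gene with edgeR's quasi-likelihood test over 17142 genes, and a gene was called if its FDR was under 0.05 and its log2 fold change exceeded 1 in size. Of the 48 members with enough counts to be tested, 13 (27.1%) were called higher, against 2.53% of all genes tested. None was called lower, against 2.84% of all genes tested (5.37% in either direction). The count lower was also 0 with limma-voom and with DESeq2, and at an unadjusted p of less than 0.05 in edgeR's test it was 1, PCDHA11. An FDR of less than 0.05 alone was reached by 22 members, all of them higher, against 17.1% of all genes higher and 18.4% lower. In 25 of the 48 (52.1%) every resistant library exceeded every parental library, against 22.1% of all genes tested, and in 0 it was the reverse, against 22.8%. The median log2 fold change was 0.39 over the tested members and 0.00379 over all genes tested.

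Low counts shaped which members could be tested. The filter was passed in all 3 libraries of both groups by 45 members, of which 12 (26.7%) were called and 21 reached an edgeR FDR of less than 0.05. PCDHB9 is the further member in the 13 called and the 22 at that FDR, and it is also among the 25 without overlap. PCDHB4, PCDHB9 and PCDHB12 passed in all resistant but not all parental libraries, so each of them needed resistant libraries to be tested. PCDHB9, which had no parental library past the filter, could only be tested because it was high in resistant cells. The 5 members not tested were PCDHB5, PCDHGA8, PCDHGB5, PCDHGA12 and PCDHGC5, with at most 10 counts in any library. PCDHB5 had 3, 1 and 0 counts in parental and 6, 3 and 10 in resistant libraries, and PCDHGB5 had 1, 0 and 0 against 0, 0 and 4. PCDHGA8 had 7, 6 and 4 counts against 8, 10 and 6, PCDHGA12 had 6, 9 and 7 against 6, 9 and 9, and PCDHGC5 had 3, 7 and 3 against 5, 5 and 6. These genes had too few counts for the main test, so a difference was neither shown nor excluded. In PCDHB5 every resistant library exceeded every parental library in CPM, and in the others the groups overlapped.

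**Figure D1:**
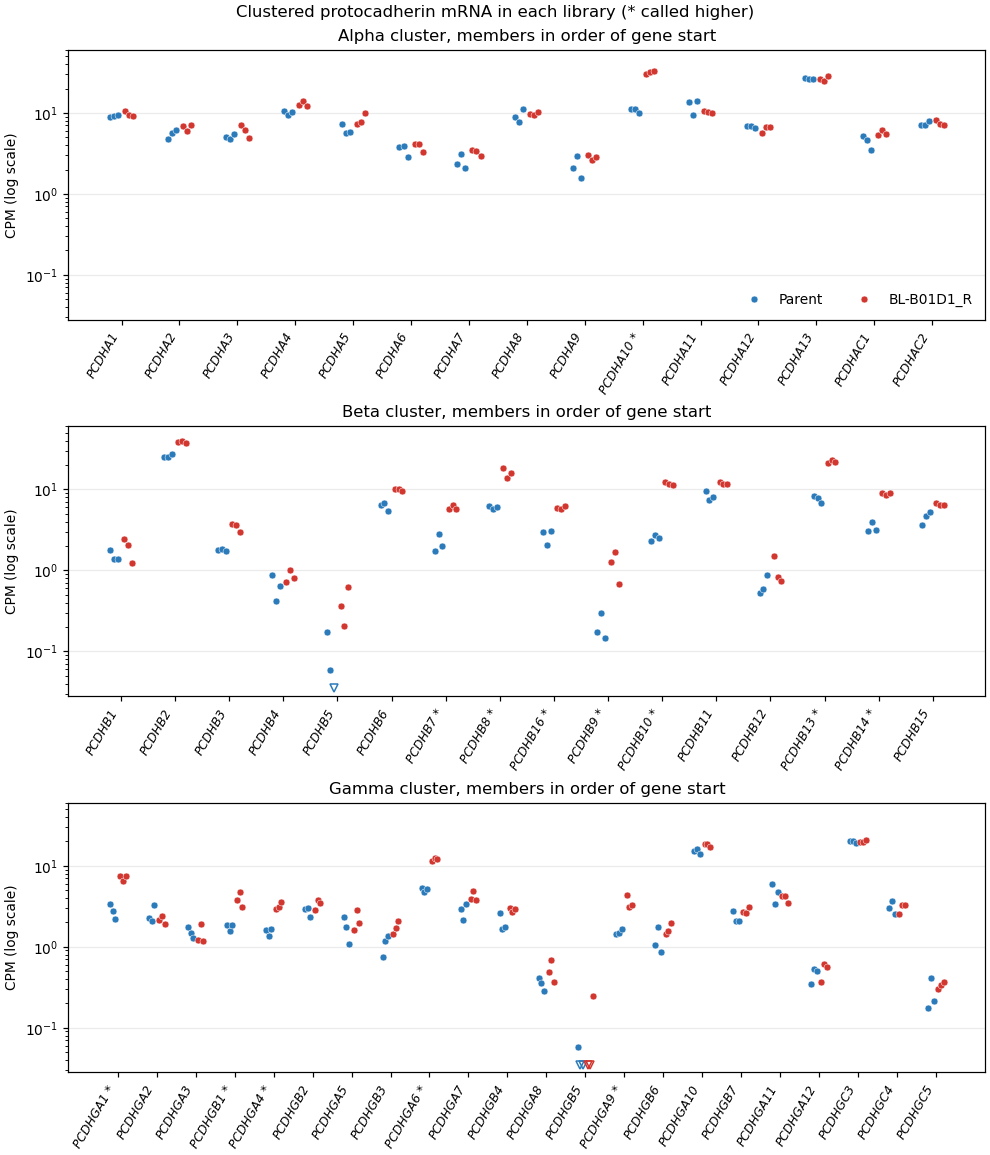
CPM of each clustered protocadherin (log axis) in the 3 parental (blue) and 3 resistant (red) libraries, drawn as points from replicate 1 to 3, with members in genomic order. Open triangles at the lower edge mark libraries with no counts and asterisks mark the 13 members called higher. The red points lie above the blue points in most of the beta panel, whereas in the alpha panel PCDHA10 stands apart.

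In the beta cluster, 7 of the 15 tested genes (46.7%) were called higher, against 2.53% of all genes tested. Without the fold threshold, 12 (80.0%) passed as higher (edgeR FDR under 0.05), against 17.1% of all genes tested. Log2 fold changes were above 0 in all 15 tested genes, against 50.6% of all genes tested. Of these 15, PCDHB4, PCDHB9 and PCDHB12 had only 2, 0 and 1 parental libraries past the filter, against 3 resistant libraries each. Their entry into the test leaned on the resistant group, which favors values above 0. PCDHB9 is also among the 7 called and the 12 at an FDR under 0.05. The summed beta level was 74.4, 73.9 and 74.3 CPM in parental libraries and 149.6, 146.8 and 142.0 CPM in resistant libraries, a ratio of 1.97. Without the most abundant gene, PCDHB2, and the called gene with the most counts, PCDHB13, the ratio was 2.10 (40.7 ± 0.467 against 85.6 ± 4.08 CPM, SD, n = 3 each), so the shift did not rest on these genes. Beta proteins share the adhesive outer part of the other members but lack the constant inner part.

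PCDHB10 (ENSG00000120324; 141192353 to 141195642) had 40, 46 and 35 counts in parental libraries and 206, 169 and 184 in resistant libraries. The groups were far apart, at 2.53 ± 0.209 and 11.8 ± 0.589 CPM (SD, n = 3 each), a log2 fold change of 2.22 (SE 0.15, edgeR FDR 1.36e-15). Its FPKM stood at place 18 of the 53 members in parental cells and at place 6 in resistant cells. PCDHB13 (ENSG00000187372; 141213919 to 141218979) went from 144, 130 and 94 counts to 351, 341 and 354, a log2 fold change of 1.52 (SE 0.10, edgeR FDR 7.61e-16). Every resistant library exceeded every parental library in both genes.

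PCDHB8 (141177790 to 141180529) had 108, 95 and 83 counts in parental and 300, 206 and 256 in resistant libraries, with a log2 fold change of 1.42 (SE 0.12, edgeR FDR 9.76e-13). It stood at place 5 by FPKM in parental cells and at place 2 in resistant cells, behind PCDHB2. PCDHB7 (141172619 to 141176383) had 30, 47 and 28 counts against 95, 93 and 94, a log2 fold change of 1.44 (SE 0.20, edgeR FDR 1.28e-07). For PCDHB14 (141222932 to 141227759) the counts were 52, 66 and 44 against 149, 124 and 147, a log2 fold change of 1.38 (SE 0.16, edgeR FDR 2.15e-09). In these 3 genes the lowest resistant library lay well above the highest parental library.

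PCDHB16 (141181399 to 141186399) had 51, 35 and 42 counts in parental and 98, 83 and 102 in resistant libraries, with a log2 fold change of 1.15 (SE 0.19, edgeR FDR 3.26e-06). Without parental replicate 2 its log2 fold change was 0.99, just short of the fold threshold. PCDHB9 (141187127 to 141191541) had the largest log2 fold change of the family, 2.49 (SE 0.51, edgeR FDR 1.32e-04), but on only 3, 5 and 2 parental counts against 21, 25 and 11 resistant counts. Leaving out single libraries gave estimates from 2.19 to 2.85.

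The remaining beta genes moved less or could not be separated. PCDHB2 (141094578 to 141098703), the member with the highest FPKM in both groups, had 430, 427 and 379 counts in parental and 632, 586 and 607 in resistant libraries. That is 6.28 ± 0.302 against 9.32 ± 0.303 FPKM (SD, n = 3 each), with a log2 fold change in counts of 0.57 (SE 0.069, edgeR FDR 6.53e-09). PCDHB3, PCDHB6, PCDHB11 and PCDHB15 also rose at an FDR of less than 0.05 (edgeR), with log2 fold changes of 0.94, 0.68, 0.51 and 0.53 and no overlap between the groups. For PCDHB15 the FDR was 0.087 in edgeR's test without parental replicate 1. PCDHB1, PCDHB4 and PCDHB12 had log2 fold changes of 0.32, 0.38 and 0.65 with edgeR FDR from 0.229 to 0.531 and overlapping groups.

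Along the chromosome, PCDHB7, PCDHB8, PCDHB16, PCDHB9 and PCDHB10 are neighbors, from 141172619 to 141195642, and all 5 were called higher. Of these, PCDHB9 had no parental library past the filter. PCDHB11 and PCDHB12 follow and were not called, then PCDHB13 and PCDHB14 were called again. The transcribed pseudogene PCDHB17P, which is no member by the rule and precedes PCDHB7, was also called higher, with 50, 54 and 37 counts in parental and 120, 92 and 125 in resistant libraries and a log2 fold change of 1.27 (SE 0.17, edgeR FDR 1.12e-07). The pseudogenes PCDHB18P and PCDHB19P, next to PCDHB15, had log2 fold changes of 0.84 and 0.85, of which the first passed an FDR of 0.05 (2.01e-04, edgeR) and the second did not (0.156). Reads shared by such similar sequences could have been assigned to either.

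**Figure D2:**
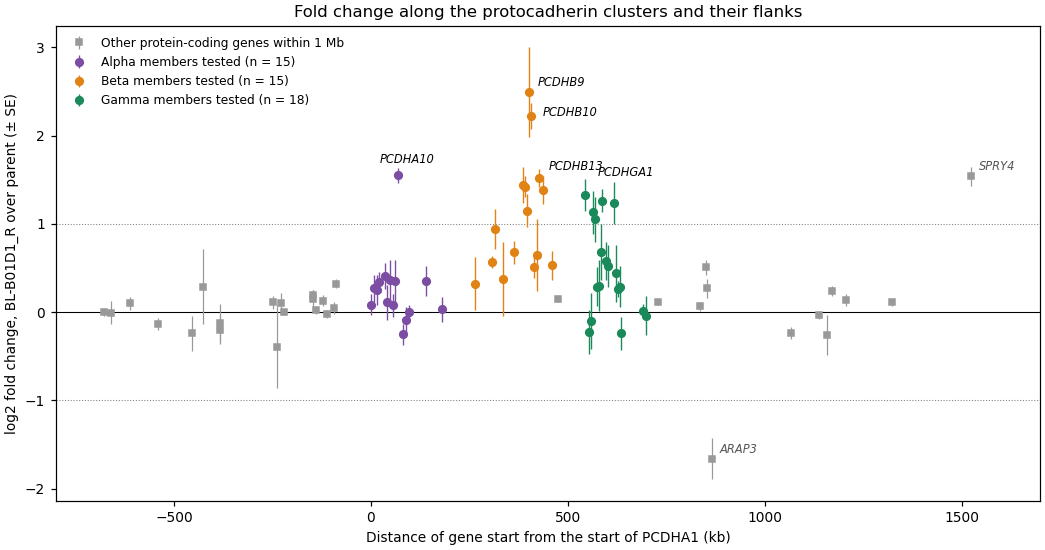
Log2 fold change of resistant over parental cells (± SE, edgeR) against the distance of each gene start from the start of PCDHA1 in kb, for the 48 members tested and for the other protein-coding genes within 1 Mb. Dotted lines mark a log2 fold change of 1 in either direction. The called members form 1 point in alpha, a dense group in the middle of beta and several points on the left side of gamma, while most flanking genes lie close to 0.

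In the alpha cluster the difference was concentrated in 1 gene. The summed alpha level was 124.8, 118.4 and 123.2 CPM in parental libraries and 151.8, 150.3 and 152.8 CPM in resistant libraries, a ratio of 1.24. Without PCDHA10 the ratio was 1.08 (111.4 ± 3.67 against 120.0 ± 1.66 CPM, SD, n = 3 each). Of the 15 alpha genes, all of them tested, 1 (6.67%) was called higher, against 2.53% of all genes tested, and 3 were higher at an FDR of less than 0.05 in edgeR's test, a share near the 17.1% of all genes tested.

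PCDHA10 (ENSG00000250120; 140855883 to 141012344) had 191, 189 and 138 counts in parental and 503, 473 and 527 in resistant libraries. It rose from 10.8 ± 0.713 to 31.7 ± 1.15 CPM (SD, n = 3 each), a log2 fold change of 1.55 (SE 0.086, edgeR FDR 1.04e-18). PCDHA10 took 8.82% ± 0.72 of the alpha counts in parental cells and 20.9% ± 0.773 in resistant cells (SD, n = 3 each) and replaced PCDHA13 as the alpha gene with the most counts. Its listed length of 15224 bases is the longest of the 53 members, and the table does not show how its counts divide between the variable exon and the rest.

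Its neighbors on either side did not share the shift. PCDHA9, before it, had a log2 fold change of 0.35 (SE 0.24, edgeR FDR 0.276) and PCDHA11, after it, one of −0.25 (SE 0.12, edgeR FDR 0.113). PCDHA11 had 238, 159 and 193 counts in parental and 178, 151 and 164 in resistant libraries, and without parental replicate 2 its log2 fold change was −0.42 with an edgeR FDR of 0.00602. PCDHA13, the most abundant alpha gene per length, had 463, 447 and 364 counts against 441, 363 and 465, and its level of 26.6 CPM was the same in both groups (SD 0.321 and 1.99, n = 3 each). PCDHA8, next in FPKM beside PCDHA11, had 155, 131 and 155 counts against 160, 139 and 166.

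PCDHA4 and PCDHA5 reached an FDR of 0.0148 and 0.0276 in edgeR's test, where the log2 fold change was 0.34 (SE 0.11) for PCDHA4 and 0.41 (SE 0.15) for PCDHA5. PCDHA4 had 184, 160 and 144 counts in parental and 207, 209 and 196 in resistant libraries. PCDHA5 had 125, 94 and 81 against 121, 113 and 160. Neither reached the fold threshold, and the FDR was not stable: it was 0.0958 for PCDHA4 without resistant replicate 2 and 0.0704 without parental replicate 2, and 0.0847 for PCDHA5 with DESeq2. In edgeR's test the FDR of PCDHA5 was also above 0.05 without parental replicate 2 (0.127), parental replicate 3 (0.0853) or resistant replicate 3 (0.234). The other alpha genes from PCDHA1 to PCDHA12, PCDHA10 apart, had log2 fold changes between −0.25 and 0.37.

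The C-type alpha genes stayed under the thresholds. PCDHAC1 had 89, 77 and 48 counts in parental and 89, 90 and 89 in resistant libraries, with a log2 fold change of 0.35 (SE 0.17, edgeR FDR 0.116) although the groups did not overlap in CPM. PCDHAC2 had 124, 119 and 111 counts against 137, 107 and 116, with a log2 fold change of 0.032 (SE 0.14, edgeR FDR 0.885).

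In the gamma cluster the A and B members were higher and the C members showed no difference beyond their spread. The 19 A and B genes summed to 55.0, 49.7 and 49.3 CPM in parental and 74.3, 78.5 and 73.9 CPM in resistant libraries, a ratio of 1.47. The ratio was 1.59 without PCDHGA10, the most abundant of them, which rose less than the sum (log2 fold change 0.26). Taken apart, the 12 A genes and the 7 B genes gave ratios of 1.47 and 1.48. Of the 16 tested, 5 were called higher (31.2%), against 2.53% of all genes tested. The 5 were PCDHGA1, PCDHGB1, PCDHGA4, PCDHGA6 and PCDHGA9.

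PCDHGA1 (ENSG00000204956; 141330571 to 141512981), the first gene of the cluster, had 59, 47 and 31 counts in parental and 123, 95 and 123 in resistant libraries, with a log2 fold change of 1.33 (SE 0.18, edgeR FDR 7.14e-08). PCDHGA6 (ENSG00000253731; start 141373914) had 91, 79 and 71 counts against 192, 182 and 198, a log2 fold change of 1.26 (SE 0.13, edgeR FDR 1.40e-10). The share of PCDHGA6 in the gamma counts was 6.77% ± 0.412 in parental and 12.2% ± 0.237 in resistant libraries (SD, n = 3 each). Both genes had groups that did not overlap and kept their call in every alternative and every fit that left out a library.

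PCDHGA9 had 25, 25 and 23 counts in parental and 73, 46 and 53 in resistant libraries, with a log2 fold change of 1.24 (SE 0.24, edgeR FDR 7.17e-05). PCDHGB1 had 32, 26 and 26 counts against 63, 69 and 50, a log2 fold change of 1.13 (SE 0.24, edgeR FDR 1.66e-04), which was 0.97 without resistant replicate 2. PCDHGA4 had 28, 23 and 23 counts against 49, 46 and 58, a log2 fold change of 1.05 (SE 0.25, edgeR FDR 6.39e-04), which was 0.97 without parental replicate 2 and 0.97 without resistant replicate 3. PCDHGB1 and PCDHGA4 therefore lie at the fold threshold, though their groups did not overlap.

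Up to PCDHGA9, uncalled genes lay between the called ones, except between the neighbors PCDHGB1 and PCDHGA4. No member after PCDHGA9 was called. PCDHGA2 and PCDHGA3, between the called PCDHGA1 and PCDHGB1, were not separated between the groups (log2 fold change −0.22, SE 0.25, and −0.10, SE 0.32), and neither was PCDHGA11 (−0.24, SE 0.19). Their edgeR FDR was 0.545, 0.845 and 0.373. PCDHGA10, the A member with the highest FPKM, had 263, 274 and 193 counts in parental and 310, 276 and 276 in resistant libraries, with a log2 fold change of 0.26 (SE 0.093, edgeR FDR 0.0289). That FDR was 0.0859 with DESeq2, and in edgeR's test 0.0538, 0.126, 0.0945 and 0.0926 without parental replicate 1, parental replicate 3, resistant replicate 1 or resistant replicate 2. PCDHGA7 was similar, with a log2 fold change of 0.58 and an edgeR FDR of 0.0288, which was 0.0842 with DESeq2 and in edgeR's test 0.167 without parental replicate 2 and 0.16 without resistant replicate 2. Of the B genes highest in FPKM beside PCDHGB1, PCDHGB2 had 50, 51 and 32 counts against 47, 56 and 57 and PCDHGB7 had 47, 35 and 29 against 45, 38 and 51, and the groups overlapped in both. PCDHGB3 and PCDHGB4 had log2 fold changes of 0.68 and 0.52 (edgeR FDR 0.105 and 0.092) and no overlap between the groups.

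PCDHGC3 (ENSG00000240184; 141475947 to 141512979), the C-type member with the highest level, had 346, 337 and 265 counts in parental and 327, 285 and 335 in resistant libraries. This was 19.7 ± 0.565 and 19.9 ± 0.655 CPM (SD, n = 3 each), with a log2 fold change of 0.0114 (SE 0.083, edgeR FDR 0.935). PCDHGC4 had 52, 62 and 35 counts against 42, 48 and 53, with a log2 fold change of −0.0385 (SE 0.22, edgeR FDR 0.917). The 3 C-type gamma genes together summed to 23.1 ± 1.18 and 23.3 ± 0.897 CPM (SD, n = 3 each), and the groups overlapped.

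**Figure D3:**
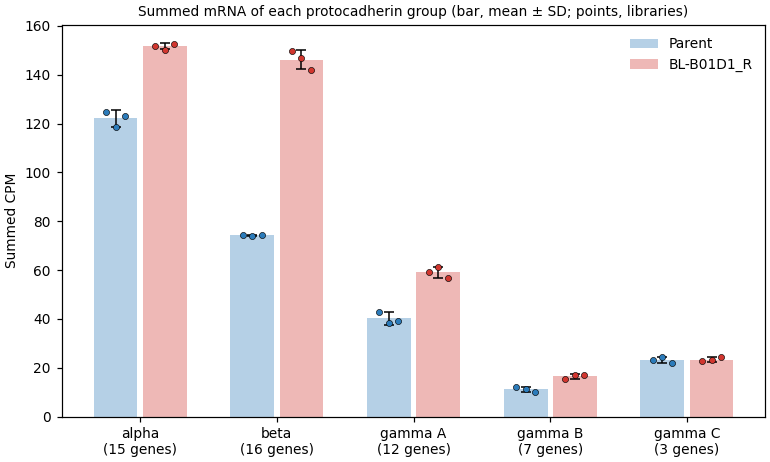
Summed CPM of the alpha, beta, gamma A, gamma B and gamma C genes in parental (blue) and resistant (red) cells, with bars for the mean, error bars for the SD and points for the 3 libraries of each group. The beta bars differ by a ratio of 1.97 and the gamma C bars by 1.01.

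The make-up of the family changed with these shifts. Of all counts on clustered protocadherins, alpha genes took 45.1% ± 0.702 in parental and 38.2% ± 0.594 in resistant libraries, beta genes 27.4% ± 0.516 and 36.8% ± 0.714, and gamma genes 27.5% ± 0.896 and 24.9% ± 0.564 (SD, n = 3 each). For all 3 clusters the groups did not overlap. These shares are of counts and are not corrected for length. Within the beta cluster PCDHB2 took 34.9% ± 1.68 of the counts in parental and 26.3% ± 0.823 in resistant libraries, while PCDHB13 went from 10.3% ± 1.07 to 15.1% ± 0.848 and PCDHB10 from 3.41% ± 0.295 to 8.04% ± 0.245. Within the gamma cluster PCDHGC3 went from 26.6% ± 0.805 to 20.2% ± 0.979 of the counts, at 19.7 and 19.9 CPM. Shares of a fixed total depend on each other, so that a lower share of PCDHB2 or PCDHA13 (21.8% ± 0.634 and 17.6% ± 1.17 of the alpha counts) is no fall in its level.

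**Figure D4:**
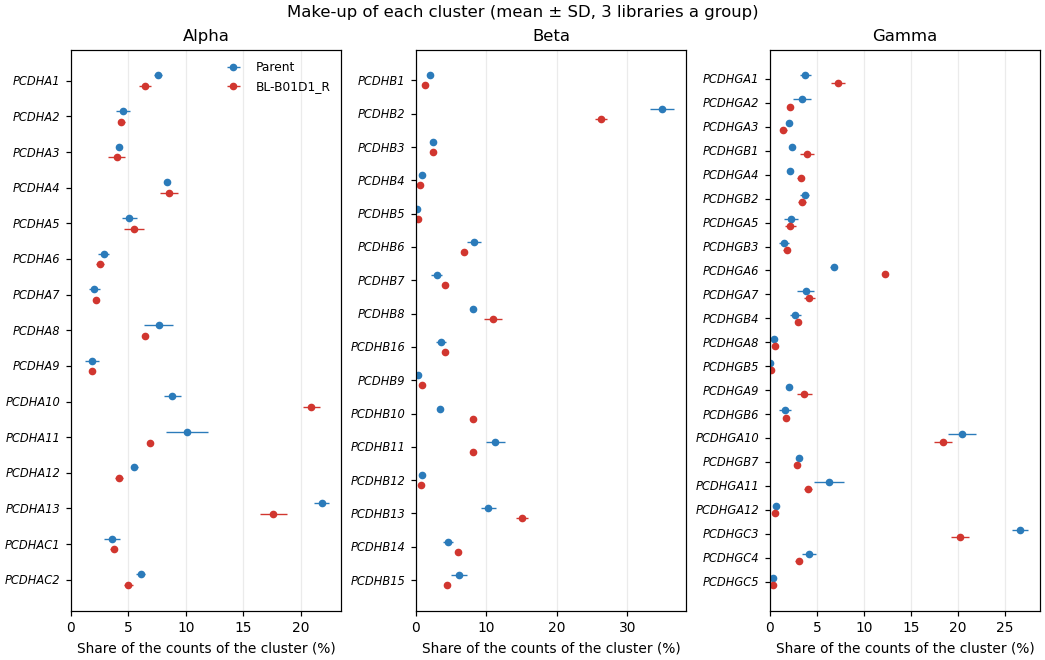
Share of the counts of its own cluster taken by each member in parental (blue) and resistant (red) cells, as the mean ± SD of 3 libraries, with members in genomic order from top to bottom. PCDHA10 moves from 8.82% to 20.9% of alpha, and PCDHB2 and PCDHGC3 take smaller shares in resistant cells.

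The order of levels depended on the scale. By CPM, with no correction for length, PCDHA13 (26.6 ± 0.321) and PCDHB2 (25.9 ± 1.25) differed by less than their spread in parental cells, and PCDHB2 was first in resistant cells (38.5 ± 1.25; SD, n = 3 each). By FPKM the first 3 members in parental cells were PCDHB2 (6.28 ± 0.302), PCDHA13 (4.96 ± 0.06) and PCDHGC3 (3.63 ± 0.104), and in resistant cells PCDHB2 (9.32 ± 0.303), PCDHB8 (5.82 ± 0.749) and PCDHA13 (4.98 ± 0.372; SD, n = 3 each). In resistant cells PCDHB8 and PCDHA13 were separated by little more than their spread. Spearman's correlation between log2 fold change and order along the chromosome was −0.33 over 13 alpha, 0.31 over 15 beta and −0.26 over 16 gamma A and B genes, which share the same libraries and are given as a description only. Between log2 fold change and parental FPKM, which share the parental libraries, it was −0.71, 0.00 and −0.18 for these groups.

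Few of the surrounding genes passed the fold threshold, at a share near that of all genes tested. Between the clusters or within 1 Mb of them lie 38 other protein-coding genes, of which 32 were tested. Of these 1 was called higher and 1 lower (edgeR), against 2.53% and 2.84% of all genes tested, and their median log2 fold change was 0.0816. At an FDR of less than 0.05 alone 8 were higher and 2 lower, against 17.1% and 18.4% of all genes tested. Before the alpha cluster 2 of 19 tested genes were higher and 0 lower at that FDR. Beyond the gamma cluster 5 of 12 were higher and 2 lower. RELL2, beyond DIAPH1, was among the higher (log2 fold change 0.51, edgeR FDR 5.18e-06). TAF7, a subunit of the general transcription factor TFIID that lies between the beta and gamma clusters, had a log2 fold change of 0.15 (SE 0.04, edgeR FDR 0.00278), which without resistant replicate 1 was 0.11 (edgeR FDR 0.0537). ZMAT2, the nearest tested gene before PCDHA1, had 0.32 (SE 0.052, edgeR FDR 2.36e-06), and DIAPH1, an actin-nucleating formin directly after the gamma cluster, had 0.11 (SE 0.03, edgeR FDR 0.0028). The called genes were SPRY4, an inhibitor of receptor tyrosine kinase signaling (6.26 ± 0.727 and 18.2 ± 0.891 CPM; log2 fold change 1.54), and ARAP3, a GTPase-activating protein (4.75 ± 0.198 and 1.51 ± 0.427 CPM; log2 fold change −1.66; SD, n = 3 each).

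Genes known to act on these promoters differed by small amounts. Of 26 factors for insulation, cohesin, DNA methylation and silencing, none was called by edgeR, limma-voom or DESeq2. Among all genes tested 5.37% were called in either direction (edgeR), so few calls would be usual in a list this short. With edgeR, 14 passed an unadjusted p of 0.05 and the same number an FDR of 0.05, 13 of them lower and 1 higher, against 18.4% and 17.1% of all genes tested, and the median log2 fold change was −0.10. STAG1, a cohesin subunit (109.9 ± 5.79 and 89.9 ± 1.66 CPM; log2 fold change −0.29; edgeR FDR 6.00e-07), and DNMT1, the maintenance DNA methyltransferase (380.3 ± 8.90 and 322.5 ± 10.9 CPM; −0.24; FDR 1.69e-08; SD, n = 3 each), were lower in every alternative and every fit that left out a library. The lower genes also included RAD21, another cohesin subunit (479.5 ± 12.6 and 427.4 ± 10.2 CPM; log2 fold change −0.17; edgeR FDR 6.30e-06), and CTCF (132.2 ± 3.85 and 120.5 ± 5.35 CPM; −0.13; FDR 0.00665; SD, n = 3 each). The FDR of CTCF was 0.0504 without resistant replicate 3. DNMT3B, a de novo DNA methyltransferase, fell by 0.28 on the log2 scale (edgeR FDR 0.0134), and TRIM28, a corepressor of zinc finger proteins, fell by 0.094 with overlapping groups (edgeR FDR 0.0219). For DNMT3B the FDR was 0.0503, 0.0561 and 0.085 without parental replicate 2, resistant replicate 1 or resistant replicate 2, and for TRIM28 it was 0.504 without parental replicate 1, 0.159 without resistant replicate 2 and 0.339 with DESeq2. MAU2, which loads cohesin, was the 1 gene higher, with 0.18 (edgeR FDR 0.00368), and this FDR was 0.0944 without resistant replicate 1.

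Protocadherins outside the clusters, which are single genes with promoters of the usual kind, went both ways. Of 12 listed, 10 were tested, 1 was called higher and 2 were called lower (edgeR), against 2.53% and 2.84% of all genes tested. The number called was 4 with no filter, without parental replicate 1 and without resistant replicate 3. PCDH8 and PCDH15 were not tested, and PCDH8 had 8, 18 and 13 counts in parental and 3, 5 and 6 in resistant libraries. PCDH19 was higher at a low level (0.956 ± 0.256 and 2.52 ± 0.491 CPM; log2 fold change 1.41; edgeR FDR 2.48e-04). PCDH17 (9.17 ± 0.264 and 3.43 ± 0.399 CPM) and PCDH11X (30.9 ± 1.07 and 13.3 ± 1.08 CPM; SD, n = 3 each) were lower, with log2 fold changes of −1.42 and −1.21 (edgeR FDR 6.65e-10 and 1.21e-15). PCDH7 and PCDH10 rose by less than the fold threshold, with log2 fold changes of 0.60 and 0.47, and PCDH1 fell by 0.24 on the log2 scale, all at an edgeR FDR of at most 0.00454.

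Of the partners listed for clustered protocadherins, PTK2 is the focal adhesion kinase that their constant parts bind. It had 104.1 ± 4.41 and 103.6 ± 2.68 CPM and a log2 fold change of −0.00741 (edgeR FDR 0.915). Its relative PTK2B had 184.4 ± 1.44 and 248.2 ± 1.1 CPM and a log2 fold change of 0.43 (edgeR FDR 8.47e-15). FYN, a kinase of the SRC family, was called lower, with 9.51 ± 1.65 and 4.64 ± 0.645 CPM (SD, n = 3 each) and a log2 fold change of −1.04 (edgeR FDR 4.30e-07). This value lies close to the fold threshold, and parental replicate 1 (11.4 CPM) was above parental replicates 2 and 3 (8.22 and 8.93 CPM). AXIN1, a scaffold of the WNT pathway, fell by 0.27 on the log2 scale (edgeR FDR 4.50e-04), PDCD10 differed by −0.0316 on that scale (edgeR FDR 0.759), and RET had too few counts to be tested.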

How the data were processed

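RNA-Seq counts were used for 6 libraries, grouped by the sample titles and matched to the columns of the deposited table by group name and number. The authors mapped the reads with HISAT2 2.0.5 to hg38 and counted them per gene with featureCounts 1.5.0-p3, and the deposited values are raw counts. Gene lengths in bases, another quantity that the authors listed, were used for FPKM. Annotation release and the handling of strand, shared and multi-mapped reads are not given in the sources used here. No column of per-sample values was left unused.

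Genes were filtered with edgeR's filterByExpr, scaled with TMM and tested in edgeR 4.0.16 (R 4.3.3) with the quasi-likelihood F-test and Benjamini-Hochberg adjustment over 17142 genes. SE of log2 fold changes were obtained as |log2 fold change|/√F. Alternatives were limma-voom (limma 3.58.1), DESeq2 (1.42.0), library size alone, no filter, a minimum of 10 counts per library, the replicate number as a block, and each library left out in turn. Summed levels got no test. The code was tested on simulated data.

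The members and lists were chosen with earlier results of these data known. Values in every library are given for members called, C-type members and the 3 members of each subfamily with the highest mean FPKM. Members with an FDR of less than 0.05, the members not tested, and the pseudogenes were named as well, after their values were seen. The same holds for PCDHGB3, PCDHGB4, TAF7, ZMAT2, DIAPH1, PCDH1, PCDH7, PCDH8, PCDH10, PCDH15, RELL2, MAU2, STAG1, DNMT1, CHGA, CHGB, SYP, LUM and COL1A1. No human sequence was used here, and 1 marker gene is not reported here.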

Additional observations from a re-analysis of the deposited data

How the results depend on the processing

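Under 6 alternatives (limma-voom, DESeq2, library size alone, no filter, a minimum of 10 counts per library, replicate block) between 12 and 13 clustered protocadherins were called higher and 0 lower. The 12 came from requiring at least 10 counts in every library, which removes PCDHB9 from the test. Leaving out single libraries gave 11 (without parental replicate 2) to 13. Of the 96 values recomputed for the summed levels and the counts of called genes, 95 stayed within the spread or the range allowed, and the exception was the log2 ratio of the summed alpha level, 0.31 by CPM and 0.18 when each gene was first divided by its length (FPKM), which lowers the weight of PCDHA10 as the longest gene. The block of replicate number gave 13 called higher and 0 lower. Same-numbered libraries did not deviate together (Pearson's r across genes of −0.00806, −0.0196 and −0.0157), so the numbers were not taken to pair the libraries. Values close to 0 changed sign: with library size alone PCDHA13 was −0.0107 and PCDHGC3 −0.00465, and with single libraries left out the log2 fold change ranged from −0.0347 to 0.22 for PCDHA8, from −0.0493 to 0.0567 for PCDHA13, from −0.0368 to 0.0849 for PCDHAC2, from −0.0145 to 0.0311 for PCDHGC3, from −0.15 to 0.11 for PCDHGC4 and from −0.0126 to 0.0884 for SYP. The cause of these changes was not tested. Depth limits the 5 members not tested and PCDHB9, whose parental level rests on 10 counts in all.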
